A study of Homo sapiens with 4 samples.

Results

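The regions described here are those that the authors list as nearest to 4 genes of sugar uptake and carbohydrate response: SLC2A2, MLXIPL, LDHB and GPT. They were found by exact match of the listed gene name in the 3 deposited tables, joined on chromosome, start and end. Each of the 4 genes had 1 region, so 4 of 5326 regions are described. The study asked which genes the transcription factor HNF4A targets when glucose differs. It used chromatin immunoprecipitation with sequencing (ChIP-seq), in which DNA bound by a protein is recovered with an antibody and nonspecific IgG gives the background, in HCCLM3, an established human hepatocellular carcinoma line. There were 4 groups of 1 library each: HNF4A antibody at high glucose, IgG at high glucose, HNF4A antibody at low glucose and IgG at low glucose. What the groups share, per the labels' protocols, is stable overexpression lines made by lentiviral transduction of a full-length cDNA in the vector pCDH-CMV-MCS-EF1-puro. The cDNA and the glucose concentrations are not named, and the same high glucose medium with 10% fetal bovine serum is given for all 4 libraries.

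HNF4A is a nuclear receptor that binds DNA as a homodimer and drives genes of hepatocyte metabolism. SLC2A2 encodes the bidirectional glucose transporter of the hepatocyte membrane, and MLXIPL encodes ChREBP, which is activated by glucose metabolites, pairs with MLX and binds carbohydrate response elements near genes of glycolysis and lipogenesis. LDHB encodes the heart-type subunit of lactate dehydrogenase, which interconverts lactate and pyruvate. GPT encodes the cytosolic alanine aminotransferase, which turns alanine into pyruvate and so links amino acids to glucose production.

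RefSeq promoter windows were matched for 3 of the 4 genes, and the 250 bases before each gene's start are shown, since they are the sequences of these genes that could be read here. Coordinates of these windows are GRCh38.p14, unlike those of the ChIP-seq regions, which are hg19. Whether a region covers its gene's promoter was therefore not analysed here, and neither was its place relative to exons and introns. Capitals mark the 5-base core CAAAG of HNF4A response elements, on either strand.
SLC2A2, chr3:171026721-171026970, minus strand: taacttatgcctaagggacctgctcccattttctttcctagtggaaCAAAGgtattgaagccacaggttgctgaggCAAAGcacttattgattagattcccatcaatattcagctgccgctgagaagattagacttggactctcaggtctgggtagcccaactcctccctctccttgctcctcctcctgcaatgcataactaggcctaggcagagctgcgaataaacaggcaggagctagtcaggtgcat
MLXIPL, chr7:73624523-73624772, minus strand: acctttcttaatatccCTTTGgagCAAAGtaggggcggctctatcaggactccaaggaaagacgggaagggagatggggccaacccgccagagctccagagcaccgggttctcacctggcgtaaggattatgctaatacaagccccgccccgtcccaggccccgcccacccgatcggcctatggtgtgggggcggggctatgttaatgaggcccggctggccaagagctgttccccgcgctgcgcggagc
LDHB, chr12:21657843-21658092, minus strand: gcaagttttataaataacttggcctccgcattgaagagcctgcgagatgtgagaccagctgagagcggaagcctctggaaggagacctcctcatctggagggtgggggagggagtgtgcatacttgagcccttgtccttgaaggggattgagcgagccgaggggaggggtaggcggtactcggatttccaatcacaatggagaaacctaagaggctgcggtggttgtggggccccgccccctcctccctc
The SLC2A2 window held 2 copies of CAAAG, 199 and 169 bases before the gene's start, and the MLXIPL window held 2, 229 bases before it on the reverse strand and 221 bases before it on the forward strand. The LDHB window held 0 copies. CAAAG occurs on at least one strand in 42.1% of all 35116 promoter windows of this length, so its presence is common. The longer HNF4A forms CAAAGTCCA, which contains that core, and 2 copies of AGGTCA in a row with 1 base of any kind between them had 0 matches in each of the 3 windows, against 0.325% and 0.0171% of all windows. The E-box CACGTG, held by 6.34% of all windows, and the carbohydrate response element form with 2 copies of that E-box 5 bases apart, held by 0.00285%, also had 0 matches. GC content was 48.8% in the SLC2A2 window, 62.4% for MLXIPL and 58% for LDHB, with a median of 58% over all windows.

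Over the 5326 regions the libraries held 198683 to 402237 reads, and the median region held 18 to 50. Each level in the tables is a read number divided by a relative library size, and these sizes ranged from 0.982 for IgG at low glucose to 1.10 for HNF4A at high glucose. "Scaled reads" below are reads divided by that size. Ratios are log2 ratios of scaled reads, followed by their exact 95% interval (Clopper-Pearson). With 1 library per group there is no replicate check, and the intervals cover counting error only. Copies made in 15 cycles of PCR are not independent molecules, so the intervals may be too narrow even for that. The 4 genes were chosen with these ratios known, in particular those of SLC2A2, LDHB and MLXIPL between the HNF4A libraries and of GPT over IgG, so their values are a description and no test is attached to them. Medians over all regions were 0.79 and 0.94 for HNF4A over IgG at high and low glucose, and those of high over low glucose were 0.36 for HNF4A and 0.51 for IgG.

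SLC2A2 had HNF4A above IgG at high glucose and close to IgG at low glucose. Its region is on chromosome 3 from 170745690 to 170746624 (935 bp). It held 43 HNF4A and 16 IgG reads at high glucose, and 15 HNF4A and 13 IgG reads at low glucose. One library was high and the other 3 lay close together, since scaled reads were 39.1 for HNF4A at high glucose against 16.1, 15 and 13.2 in the others. HNF4A over IgG was 1.28 (0.42 to 2.21) at high glucose and 0.18 (-0.99 to 1.37) at low glucose, and the latter was -0.76 relative to the all-region median. Between the HNF4A libraries the ratio of high over low glucose was 1.38 (0.51 to 2.34), a 2.61-fold difference and rank 78 of 5326 from the highest. The IgG ratio was 0.28 (-0.86 to 1.46), an interval that includes 0 and also the HNF4A ratio of 1.38. The difference of the ratios over IgG was 1.10 (-0.41 to 2.60), which includes 0.

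For MLXIPL, HNF4A exceeded IgG about equally at both glucose levels. The region lies on chromosome 7 from 73026992 to 73027932 (941 bp). It held 98 HNF4A and 21 IgG reads at high glucose, and 52 and 11 at low glucose. Both antibodies were thus higher at high glucose, with scaled reads of 89.2 and 52 for HNF4A and 21.2 and 11.2 for IgG. HNF4A over IgG was 2.08 (1.39 to 2.83), a 4.22-fold excess, at high glucose and 2.21 (1.26 to 3.30), a 4.64-fold excess, at low glucose. These values were exceeded or equalled by 11.8% and 8.71% of all regions. High over low glucose gave 0.78 (0.28 to 1.29) for HNF4A and 0.92 (-0.20 to 2.12) for IgG, and the difference of the ratios over IgG was -0.14 (-1.45 to 1.11).

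At LDHB, HNF4A reads were near those of IgG at both glucose levels. The region on chromosome 12 from 21809766 to 21811242 (1477 bp) held 54 HNF4A and 36 IgG reads at high glucose. At low glucose it held 24 HNF4A and 27 IgG reads. HNF4A at high glucose was the highest of the 4 libraries, at 49.2 scaled reads, and HNF4A at low glucose the lowest, at 24, with IgG between them at 36.3 and 27.5. HNF4A over IgG was 0.44 (-0.20 to 1.09) at high glucose and -0.20 (-1.05 to 0.65) at low glucose, and both intervals include 0. Relative to the all-region median the value at high glucose was -0.35, on the other side of 0. A ratio above 0 at high and below 0 at low glucose was seen at 1 of the 4 regions, LDHB, and at 4.45% of all regions. The HNF4A ratio of high over low glucose was 1.03 (0.32 to 1.79), rank 320 of 5326, and IgG stood at 0.40 (-0.36 to 1.18).

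GPT had by far the most reads of the 4 and an excess of HNF4A over IgG at both glucose levels. Its region on chromosome 8 from 145727840 to 145729980 was also the longest, at 2141 bp. It held 211 HNF4A and 74 IgG reads at high glucose, and 141 and 36 at low glucose. In scaled reads the HNF4A libraries, at 192 and 141, both lay above the IgG libraries, at 74.5 and 36.7. HNF4A over IgG was 1.37 (0.98 to 1.77) at high glucose and 1.94 (1.41 to 2.51) at low glucose. HNF4A was higher at high glucose by 0.45 (0.13 to 0.76), which is 0.09 above the median of all regions, and IgG by 1.02 (0.43 to 1.64). As point values the IgG ratio was thus above the HNF4A ratio at GPT. The difference of the ratios over IgG was -0.58 (-1.28 to 0.10), an interval that includes 0.

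**Figure D1:**
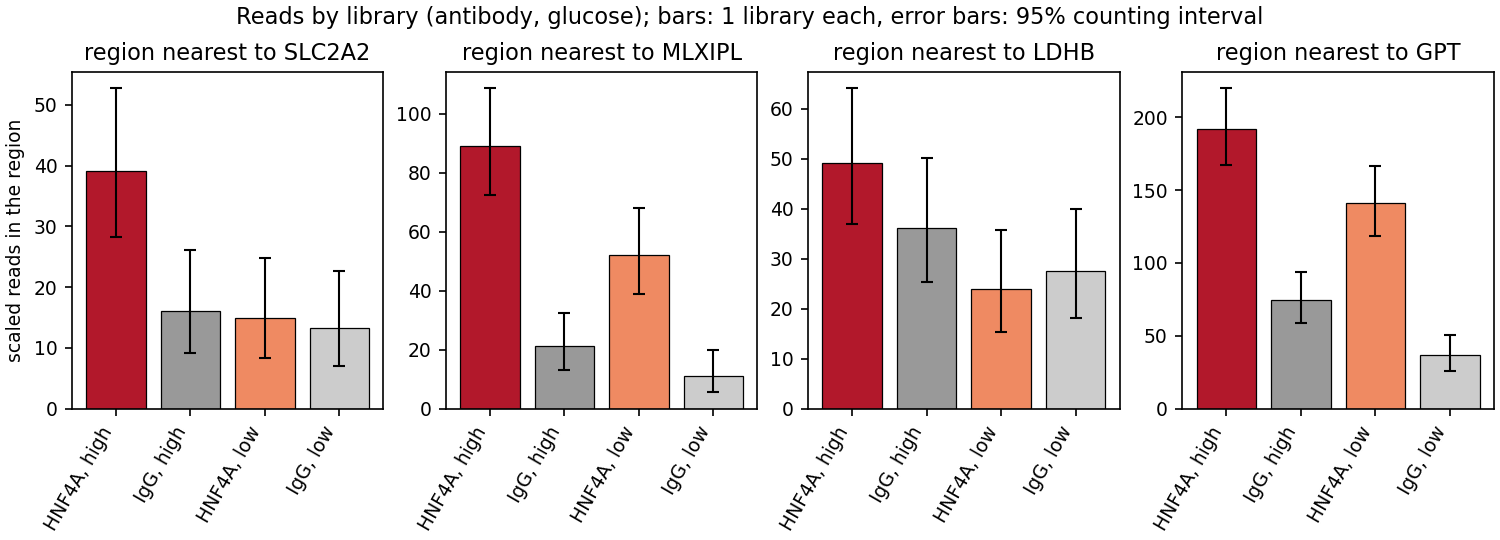
Scaled reads (y axis) in each of the 4 libraries (x axis) for the regions nearest to SLC2A2, MLXIPL, LDHB and GPT, with bars for the single library of each group and error bars for the exact 95% counting interval; each panel has its own scale from 0. SLC2A2 has 1 high library, HNF4A at high glucose, while at MLXIPL and GPT both HNF4A libraries stand above both IgG libraries.

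HNF4A was above IgG in all 4 regions when glucose was high, as in 84.2% of all regions, and in 3 when it was low, as in 91.5%. Of the 4, 3 (SLC2A2, MLXIPL and GPT) were at least 2-fold above IgG at high glucose, where 41.6% of all regions were. At low glucose 2 of the 4 (MLXIPL and GPT) were, against 46.8% of all regions, and these were also the 2 that reached 2-fold at both glucose levels, as did 31.4% of all regions. The interval lay above 0 for the same 3 regions at high glucose, against 55.2% of all regions, and for the same 2 at low glucose, against 56.2%. By ratio the order at high glucose was MLXIPL, GPT, SLC2A2, LDHB, and no neighbours in that order differed beyond counting error. The gap from MLXIPL to GPT, for example, was 0.71 (-0.10 to 1.57). At low glucose the order was the same, and the gap between GPT and SLC2A2, 1.76 (0.43 to 3.07), was the only one between neighbours whose interval did not include 0. GPT was chosen on its ratio over IgG, and SLC2A2 on a ratio with HNF4A at low glucose as denominator. That gap is therefore part of the choice, and nothing is read from it.

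In the authors' deposited table for high glucose, the p-value was 0.0383 for MLXIPL, 0.0481 for GPT, 0.330 for SLC2A2 and 0.676 for LDHB. A p under 0.05 with HNF4A higher was given to 4.96% of all regions in the authors' deposited table. At low glucose the p-value in the authors' deposited table was 0.00999 for GPT, rank 23 of 5326 by p, and 0.0517 for MLXIPL, 0.910 for SLC2A2 and 0.868 for LDHB, where 3.04% of all regions had a p under 0.05 with HNF4A higher. After the authors' adjustment over all regions the 4 genes' false discovery rates in the authors' deposited tables over IgG were 0.820 to 0.979, and 0 regions were under 0.05 in either table. How those p-values were obtained from 1 library per side was not stated in the sources used here.

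**Figure D2:**
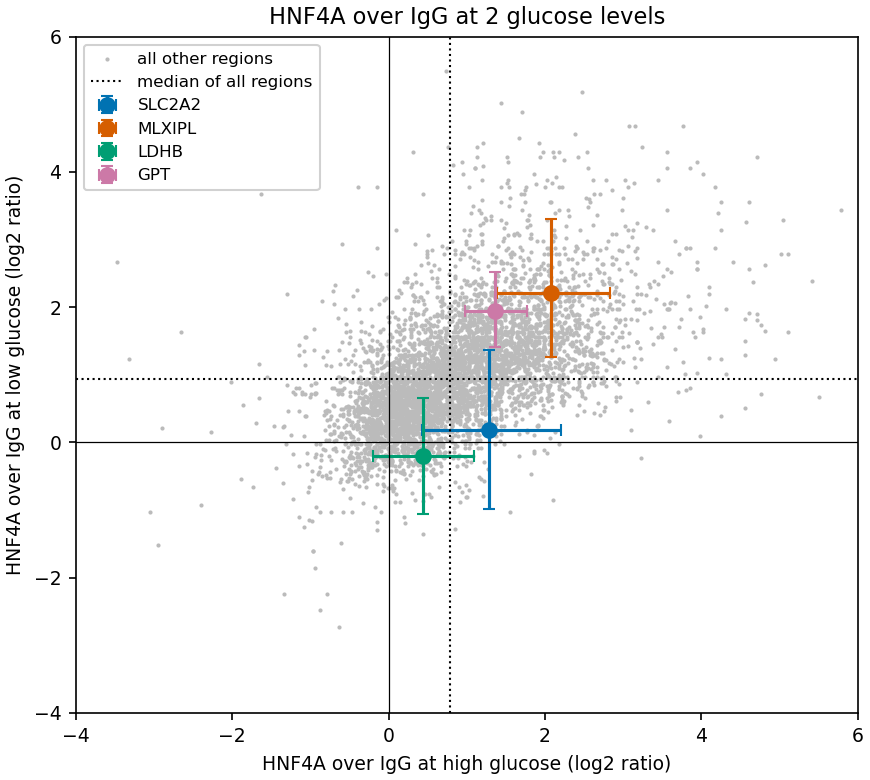
HNF4A over IgG at high glucose (x axis) against low glucose (y axis), both as log2 ratios, with grey points for all other regions, coloured points for the 4 genes, error bars for exact 95% counting intervals and dotted lines for the medians of all regions, 0.79 and 0.94. MLXIPL and GPT lie above both medians, SLC2A2 above the median at high glucose alone, and LDHB below both.

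Between the HNF4A libraries all 4 regions held more scaled reads at high glucose, and 81.8% of all regions did. At least a 2-fold difference was seen for SLC2A2 and LDHB, 2 of 4, against 6.78% of all regions, and all 4 intervals lay above 0, against 25.8%. These are contrasts the genes were chosen on, so nothing is read from these counts. SLC2A2 stood highest, followed by LDHB, MLXIPL and GPT. No neighbours in that order differed beyond counting error, the widest gap being 0.35 (-0.83 to 1.56) from SLC2A2 to LDHB. For the HNF4A libraries the p-value in the authors' deposited table was 0.0180 for SLC2A2, 0.0732 for LDHB, 0.139 for MLXIPL and 0.297 for GPT. A p under 0.05 with HNF4A higher at high glucose was given to 4.39% of all regions in the authors' deposited table, and the false discovery rate there was 0.914 for each of the 4.

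Between the IgG libraries all 4 regions also held more scaled reads at high glucose, where the median ratio of all regions was 0.51. The interval lay above 0 for GPT alone. At IgG, 1 of the 4 regions, GPT, was at least 2-fold higher at high glucose, as were 19.4% of all regions, and the IgG ratios of the 4 genes ranged from 0.28 to 1.02. The order of the genes in IgG (GPT, MLXIPL, LDHB, SLC2A2) was the reverse of their order in HNF4A, although no neighbours in it differed beyond counting error. The part of the IgG libraries in the HNF4A difference was not tested. The ratio over IgG itself was higher at high glucose by 1.10 (-0.41 to 2.60) for SLC2A2 and by 0.63 (-0.45 to 1.72) for LDHB, and all 4 intervals of this difference included 0. A difference of at least 2-fold upward was thus seen for 1 of the 4 regions, SLC2A2, against 8.49% of all regions. Scaled HNF4A reads in excess of IgG were 23.0 at high and 1.76 at low glucose for SLC2A2, 68.1 and 40.8 for MLXIPL, 12.9 and -3.5 for LDHB, and 118 and 104 for GPT.

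**Figure D3:**
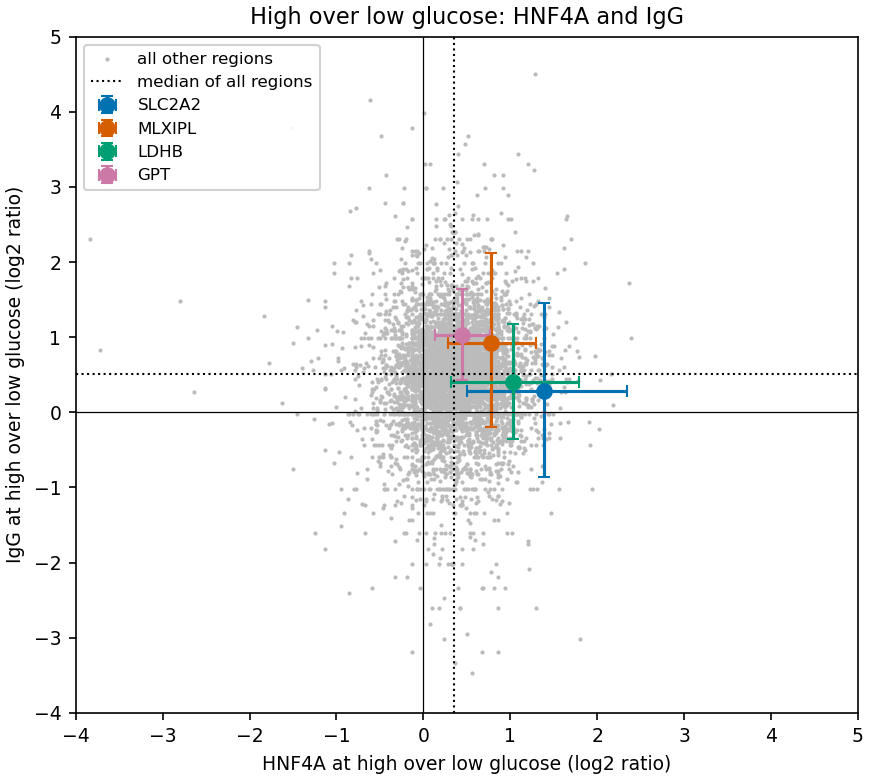
High over low glucose for HNF4A (x axis) against IgG (y axis), as log2 ratios, with grey points for all other regions, coloured points for the 4 genes, error bars for exact 95% counting intervals and dotted lines for the medians of all regions, 0.36 and 0.51. From GPT to SLC2A2 the HNF4A ratio goes from 0.45 to 1.38 while the IgG ratio goes from 1.02 to 0.28.

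Read density is given in scaled reads per kilobase of region. HNF4A reads were dense at both glucose levels for 2 of the 4 genes, and sparse at low glucose for the other 2. At high glucose HNF4A density was 94.8 for MLXIPL and 89.7 for GPT, ranks 160 and 190 of 5326 from the highest, with a median of 41.7 over all regions. SLC2A2, at 41.9, lay near that median and LDHB, at 33.3, below it. At low glucose GPT, at 65.9, and MLXIPL, at 55.3, were again dense, against a median of 33.1. SLC2A2 and LDHB stood at 16.0 and 16.2 there, ranks 5217 and 5209 of 5326, near the lowest of all regions. Low density at low glucose is the denominator of the ratio these genes were chosen on, so it is part of that choice. MLXIPL and GPT did not differ in density beyond counting error at high glucose (log2 ratio 0.08, -0.28 to 0.43) or at low glucose, nor did SLC2A2 and LDHB. GPT exceeded SLC2A2 at high glucose by 1.10 (0.62 to 1.61), and MLXIPL exceeded LDHB at low glucose by 1.77 (1.04 to 2.53), on the log2 scale per kilobase. IgG densities were more alike, from 17.2 to 34.8 at high glucose and from 11.9 to 18.6 at low glucose, against medians of 25.1 and 17.0. The other regions of chromosomes 3, 7, 12 and 8 had median IgG densities of 22.1, 29.7, 28.8 and 29.1 at high glucose. IgG at high glucose was below the chromosome's median for SLC2A2, MLXIPL and LDHB, at 17.2, 22.5 and 24.6, and above it for GPT, at 34.8, while at low glucose GPT, at 17.1, was below its chromosome's 20.7. The IgG counting intervals of all 4 genes at high glucose include their chromosomes' medians, and so does that of GPT at low glucose.

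Around GPT, whose own ratio over IgG was known when it was chosen, 12 other regions lay within 250 kb, and the nearest, listed for MFSD3, a solute transporter gene, was 2.95 kb away. That region held 151 HNF4A and 136 IgG reads at high glucose and 121 and 77 at low glucose. Its ratio over IgG was 0.63 (0.20 to 1.06) at low glucose, and at high glucose its interval ran from -0.34 to 0.35, beside 0.98 to 1.77 for GPT. HNF4A was below IgG at high glucose in 7 of the 12, whereas it was above IgG in 84.2% of all regions. The lowest of the 12 at high glucose was -0.99 near SCRT1, a zinc finger repressor gene. The highest was 1.38 (0.89 to 1.88) in a region near VPS28, a gene of endosomal sorting, the 1 of the 12 at or above GPT. At low glucose they ranged from -0.56 to 0.82, and 0 of the 12 reached GPT's 1.94. Near DGAT1, which makes triglycerides, the ratio was 0.20 (-0.17 to 0.58) at high glucose and 0.62 (0.16 to 1.10) at low glucose. Regions near HSF1, the heat shock factor gene, ADCK5, MIR939, CPSF1, FOXH1, the other VPS28 region and both ZNF251 regions lay between -0.39 and 0.65 at high glucose and between 0.10 and 0.77 at low glucose.

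Within 250 kb of MLXIPL lay 8 other regions, whose ratios over IgG were like those of all regions. All 8 were above IgG at high glucose, at 0.39 to 1.32, and 7 at low glucose, where 84.2% and 91.5% of all regions were. Their medians were 0.95 and 0.88, beside 0.79 and 0.94 for all regions, and 3 and 4 of the 8 were at least 2-fold above IgG, beside 41.6% and 46.8%. None of these 8 reached the MLXIPL ratio at high or at low glucose, which describes a region chosen for its values. The closest to it was the region near BAZ1B, a chromatin remodelling gene, at 1.32 (0.89 to 1.77) and 2.19 (1.55 to 2.87). A region near VPS37D stood at 1.28 (0.57 to 2.04) and 2.12 (1.19 to 3.16), and its second region at 0.99 and 1.45. TBL2, the gene next to MLXIPL in the RefSeq order on one side, had a region at 0.39 (-0.16 to 0.94) and -0.55 (-1.25 to 0.13). The 2 regions near BCL7B, and those near ABHD11-AS1, a long noncoding RNA, and CLDN4, a tight junction gene, ranged from 0.57 to 1.23 at high glucose and from 0.36 to 1.10 at low glucose. Between the HNF4A libraries, 2 of the 8, near TBL2 at 1.01 (0.39 to 1.66) and ABHD11-AS1 at 0.86 (0.20 to 1.56), were at or above the 0.78 of MLXIPL.

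SLC2A2 and LDHB were more isolated, with 1 other region each within 250 kb. The region near RPL22L1, 157 kb from that of SLC2A2, held 31 HNF4A and 33 IgG reads at high glucose and 33 and 18 at low glucose. The HNF4A ratio of high over low glucose was -0.23 (-0.98 to 0.53) there, on the other side of 0 from SLC2A2, and the intervals overlap slightly. PYROXD1, 218 kb from LDHB, had 47 and 23 reads at high and 24 and 22 at low glucose, giving an HNF4A ratio of high over low glucose of 0.83 (0.10 to 1.61). That is close to the 1.03 of LDHB. In the RefSeq gene order, LDHB neighbours GYS2, the liver glycogen synthase gene, and no region was listed for GYS2.

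**Figure D4:**
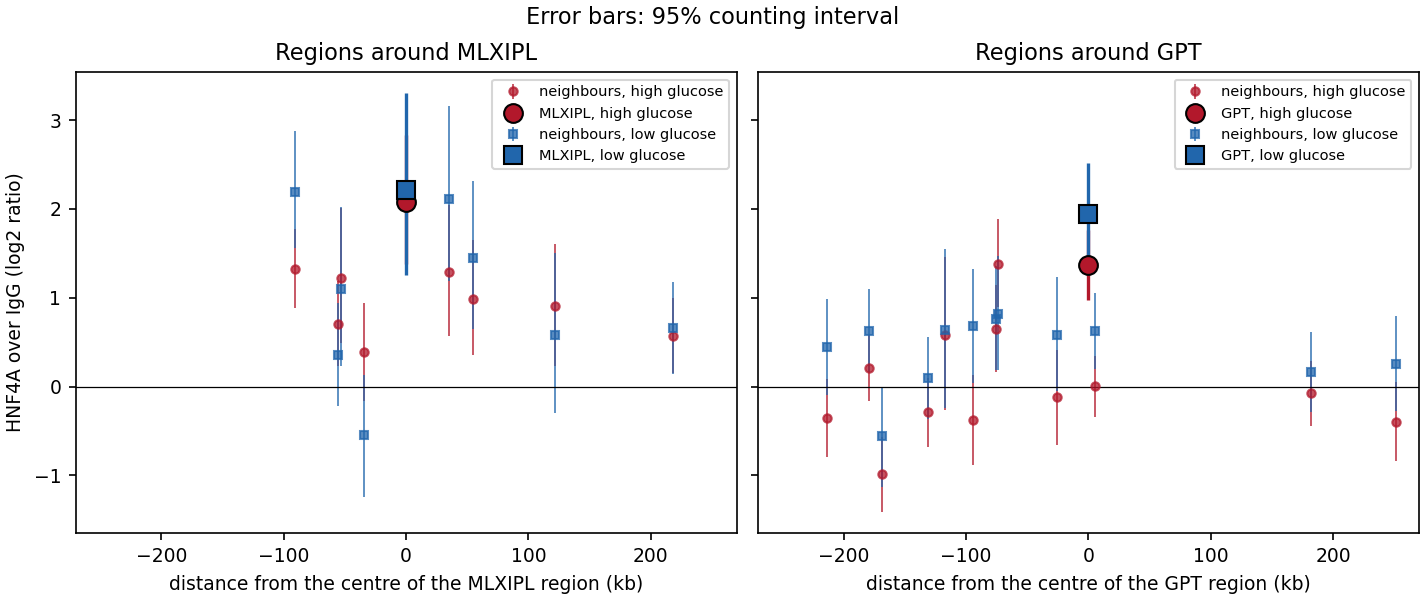
HNF4A over IgG as a log2 ratio (y axis) against distance in kb from the centre of the MLXIPL or GPT region (x axis), for the region itself (large symbols) and the others within 250 kb (small symbols), with circles for high glucose, squares for low glucose and error bars for exact 95% counting intervals. At low glucose GPT, at 1.94, stands above its 12 neighbours, which reach 0.82, and MLXIPL, at 2.21, above its 8, which reach 2.19. At high glucose the neighbours reach 1.38 beside 1.37 for GPT, and 1.32 beside 2.08 for MLXIPL.

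Sets of genes of carbohydrate metabolism, written from textbook pathway membership as 6 lists, named 143 genes, of which 35 had a region and 31 were other than the 4 genes described. Of these 31, 11 were at least 2-fold above IgG at high glucose, against 41.6% of all regions, and 12 at low glucose, against 46.8%. Their median ratios, 0.65 and 0.82, lay slightly under those of all regions. Each of the 31 stands for its region with the most reads. A second background kept only regions whose level was no lower than the median. In it 28.0% were at least 2-fold above IgG at high and 33.6% at low glucose. The 31 genes stood at 35.5% and 38.7%, above that background and below the background of all regions. Neither difference was tested. HNF4A at high over low glucose was at least 2-fold up in 0 of the 31, against 6.78% of all regions. A downward difference of at least 2-fold was seen in 1, against 0.713% of all regions. That gene, EMB, encodes a chaperone of lactate transporters and was named here after its values were seen. EMB held 6 HNF4A reads with high and 11 with low glucose, a ratio of -1.01 (-2.73 to 0.55), and its second region, with 12 and 15, stood at -0.46. The first region held 18 and 17 IgG reads. HNF4A there was below IgG, at -1.73 (-3.35 to -0.34) with high and -0.65 (-1.89 to 0.52) with low glucose. The means over both EMB regions were 0.85 and 1.61. For HNF4A at high over low glucose the median of the 31 was 0.37, beside 0.36 for all regions.

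Sugar transporters had 4 of 19 genes with a region. SLC2A1, the widely expressed glucose transporter gene, held 43 HNF4A and 8 IgG reads at high glucose and 26 and 8 at low glucose. Its ratios over IgG were 2.28 (1.17 to 3.58) and 1.67 (0.49 to 3.03), and both intervals lay above 0. A second SLC2A1 region, with 26 HNF4A and 2 IgG reads at high and 17 and 1 at low glucose, stood at 3.55 (1.56 to 6.67) and 4.06 (1.39 to 9.45), with interval widths set by those few IgG reads. The HNF4A ratio of high over low glucose was 0.59 (-0.15 to 1.35) in the first SLC2A1 region and 0.48 (-0.46 to 1.45) in the second. SLC2A14, of the same family, stood at 2.27 (0.99 to 3.82) and 1.85 (0.50 to 3.44) over IgG, with 6 IgG reads at each glucose level. SLC2A11 stood at -0.50 (-1.48 to 0.45) and 0.74 (-0.47 to 2.03). Apart from the second SLC2A1 region, these regions held 6 to 23 IgG reads per library, and their intervals are wide.

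Of carbohydrate response factors and their known targets, 8 of 27 had a region. Taking each gene's region with the most reads, MLXIPL had the highest ratio over IgG of the 8 at low glucose. SREBF1, which encodes a factor of lipid synthesis and was named after its values were seen, was higher at high glucose, at 2.23 (1.24 to 3.37), and stood at 0.59 (-0.35 to 1.56) at low glucose. The second SREBF1 region, with 35 HNF4A and 4 IgG reads at high and 22 and 2 at low glucose, was above MLXIPL at both, at 2.98 and 3.43. MLXIP, which encodes the relative of ChREBP, stood at 0.45 (-0.06 to 0.97) and 0.77 (0.11 to 1.46) over IgG, under MLXIPL at both levels, and its second region at 0.08 and 0.0094. MNT, a repressor of the same protein network, stood at 0.12 (-0.28 to 0.52) and 0.96 (0.46 to 1.47). BHLHE41, a circadian repressor gene, was at 1.64 (1.06 to 2.25) and 0.85 (0.20 to 1.53), and its HNF4A ratio of high over low glucose, 0.81 (0.34 to 1.30), was close to that of MLXIPL, with IgG at 0.03 (-0.73 to 0.79). The fructokinase gene KHK, named after its values were seen, had 45 HNF4A and 44 IgG reads at high glucose and 38 and 12 at low glucose. Its ratios over IgG were -0.11 (-0.75 to 0.52) and 1.64 (0.67 to 2.71), where IgG at high over low glucose was 1.86 (0.91 to 2.92). The second KHK region, with 54, 19, 30 and 15 reads in the same order of libraries, did not have this pattern.

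For glycolysis and its control, 8 of 28 genes had a region and all 8 were above IgG at both glucose levels, as 84.2% and 91.5% of all regions were. At least 2-fold was reached by 4 of them at high and 3 at low glucose, beside 41.6% and 46.8% of all regions. GAPDH had the most reads, 338 and 149 at high and 204 and 133 at low glucose, with ratios of 1.04 (0.75 to 1.32) and 0.59 (0.27 to 0.92). The isomerase genes TPI1, at 0.54 (0.12 to 0.98) and 0.82 (0.33 to 1.32), and GPI, at 0.21 (-0.28 to 0.70) and 0.27 (-0.37 to 0.92), lay lower. GCKR, the regulator of liver glucokinase, was named after its values were seen and stood at 1.33 (0.64 to 2.07) and 1.37 (0.58 to 2.21).

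LDHB belonged to a list of lactate and pyruvate genes, 10 of 26 with a region. LDHA, which encodes the partner subunit of lactate dehydrogenase and was named after its values were seen, held 77 HNF4A and 32 IgG reads at high and 54 and 13 at low glucose. Its ratios over IgG were 1.12 (0.51 to 1.76) and 2.03 (1.14 to 3.03), against 0.44 and -0.20 for LDHB. IgG at high over low glucose was 1.28 (0.31 to 2.34) at LDHA. LDHB was chosen on a ratio with HNF4A at low glucose as denominator, and the gap between the 2 subunit genes was not tested. The HNF4A ratio of high over low glucose was 0.38 (-0.14 to 0.91) at LDHA. The lactate exporter gene SLC16A3 stood at 0.72 (0.30 to 1.14) and 0.55 (0.09 to 1.02), and PC, pyruvate carboxylase, at 0.31 (-0.22 to 0.84) and 0.68 (0.03 to 1.36). PDP1, a phosphatase of pyruvate dehydrogenase, had 3 regions. Its region with the most reads stood at -0.11 (-0.57 to 0.35) and 0.55 (-0.06 to 1.17), and the others were higher, at 1.66 (0.49 to 3.01) and 0.78 (-0.15 to 1.77) and at 1.10 (0.22 to 2.04) and 2.26 (1.21 to 3.48).

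GPT was the 1 gene with a region among 15 genes of alanine and amino acid entry to gluconeogenesis. Of gluconeogenesis and glycogen, 4 of 31 had a region. At least 2-fold above IgG was reached by 0 of these 4 at high and 1 at low glucose, beside 41.6% and 46.8% of all regions. That 1 was GSK3A, a kinase of glycogen synthase, at 1.22 (0.58 to 1.88) at low and 0.13 (-0.36 to 0.62) at high glucose in its region with the most reads, and at 1.66 and 0.91 in the other. The glycogen phosphorylase gene PYGB had 4 regions. The one with the most reads stood at 0.68 (0.34 to 1.03) over IgG when glucose was high and 0.84 (0.40 to 1.29) when it was low, and the others ranged from -0.19 to 0.59 and from 0.23 to 0.76. The branching enzyme gene GBE1 stood at 0.89 (0.33 to 1.46) at high glucose and 0.61 (-0.0039 to 1.24) at low.

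**Figure D5:**
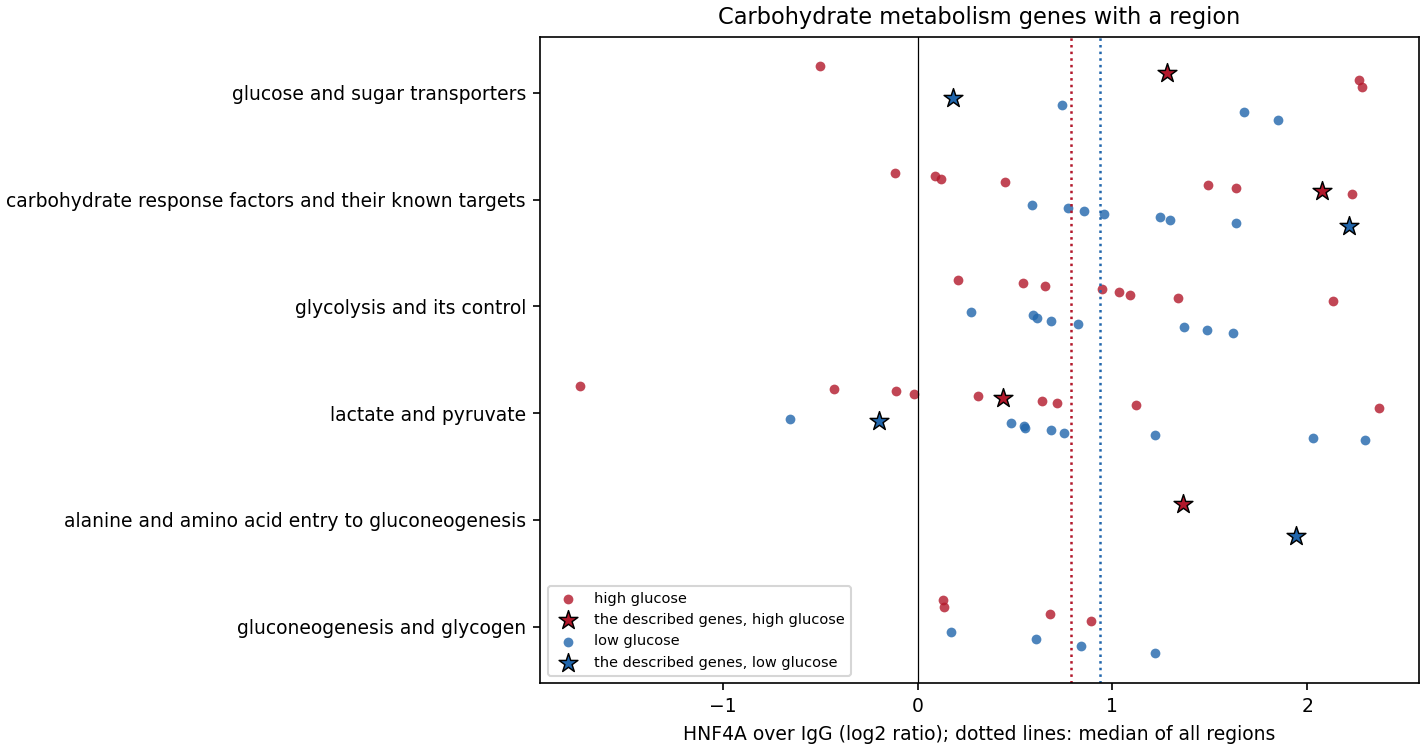
HNF4A over IgG as a log2 ratio (x axis) for each gene with a region in the 6 lists (y axis), red at high and blue at low glucose, with stars for SLC2A2, MLXIPL, LDHB and GPT and dotted lines for the medians of all regions, 0.79 and 0.94. The MLXIPL stars, at 2.08 and 2.21, are near the upper end of their list, while the LDHB stars, at 0.44 and -0.20, are left of both medians.

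By distance over the log2 scaled reads of the 4 libraries, each gene's closest match among all regions was outside these lists. For SLC2A2 these were regions near SVIP, with 40 HNF4A and 18 IgG reads at high and 15 and 13 at low glucose (distance 0.20), and near PIAS2 (0.32). MLXIPL was closest to DDX56 (0.25) and MBP (0.31), LDHB to PRKD3 (0.13) and ZNF268 (0.25), and GPT to C12orf45 (0.41) and BAIAP2L1 (0.46). Median distances to all regions were 1.91 to 3.67. The closest pair among the 4 genes themselves was SLC2A2 and LDHB, at 1.75, and the farthest was SLC2A2 and GPT, at 4.77. Likeness over 4 libraries reflects level as well as pattern and was not tested.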

How the data were processed

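The series holds 4 ChIP-seq libraries, 1 per group, named by their titles. Per the submitters' processing notes, reads went through bcl2fastq, Bowtie 1.1.2, MACS, HOMER and DiffBind on hg19. Their roles, their settings and the choice of regions were not given in the sources used here. Deposited values are the authors' log2 levels of scaled reads for each side of 3 comparisons, their log2 fold, and the authors' p-value and false discovery rate. The authors' listed gene is used without a distance.

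Unlogged levels were whole multiples of 1 step per library, within 0.01, for 100% of values, which gave the reads and relative sizes. Reads of the shared HNF4A libraries were identical between tables in all 5326 regions, which settled the sides of the HNF4A table. Starts are printed counted from 1. Listed gene names differed among tables in 20 regions, none of them described here by name, and 33 regions had no gene. Ratios and exact 95% intervals (Clopper-Pearson; for differences of ratios the conditional interval of the odds ratio) were computed with Python 3.11.15 and SciPy 1.17.1 and tested on simulated data. At least 2-fold was the call, counted over all regions as background. Members, lists and rules were chosen with earlier results of these data known. The text names every region of the 4 genes, the 3 genes of each list with the most reads (a gene stands for its region with the most reads), the 2 closest regions by Euclidean distance and regions within 250 kb. Alternatives were other scaling, centring, a read added, a 1.5-fold call, IgG subtraction or pooling, and gene-level sums. For the list genes, regions at or above the median level were an alternative background. Motifs were matched on both strands, and CAAAG was chosen after the sequences were seen. Region sequences were not analysed here.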

Additional observations from a re-analysis of the deposited data

Results flagged for a closer look

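At LDHB the HNF4A over IgG log2 ratio was above 0 at high and below 0 at low glucose, a difference of 0.63 (-0.45 to 1.72), and 4.45% of all regions were on these sides. TBL2, near MLXIPL, had the same sides, with a difference of 0.94. On the opposite sides, below 0 at high and above 0 at low glucose, were SLC2A11 at -1.24, KHK at -1.75 and PDP1 at -0.66, each in its region with the most reads, and RPL22L1, near SLC2A2, at -1.08. Near GPT the same sides were seen for HSF1 at -0.79, ADCK5 at -0.38, CPSF1 at -1.05, FOXH1 at -0.71 and the 2 ZNF251 regions at -0.24 and -0.65. The other 2 PDP1 regions and the other KHK region were above 0 at both glucose levels. Their differences were 0.88 and -1.16 for PDP1 and 0.39 for KHK. Of all regions, 16.2% lay on opposite sides of 0 at the 2 glucose levels. With 1 library per group these differences were not tested.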

How the results depend on the processing

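Of 115 recomputed values of the 4 genes, 100 stayed within the interval of the value as reported, 15 moved outside it, and 0 values of at least 2-fold changed sign. Centring on the median of all regions, or of the same chromosome, left 1 of 4 regions (MLXIPL) at least 2-fold above IgG at high glucose in place of 3. Under both centrings the count was 1 (SLC2A2) in place of 2 for the HNF4A ratio of high over low glucose and 0 in place of 1 for that of IgG. Subtracting IgG first gave 1 for HNF4A, SLC2A2 at 3.71, which rests on 1.76 scaled reads in excess at low glucose, and LDHB had no value because its excess was negative. A 1.5-fold call gave 3 in place of 2 for the HNF4A ratio, 2 in place of 1 for IgG and for the difference of ratios, 17 in place of 11 other list genes at high glucose, and 25 in place of 12 at low glucose. Pooling both IgG libraries, which makes the difference equal to the HNF4A ratio, gave 2 in place of 1; the same-chromosome centring and the pooling were chosen after the data were seen. Centring also turned the sign of LDHB over IgG at high glucose (-0.35, or -0.21 by chromosome), of SLC2A2 over IgG at low glucose (-0.76 and -0.88), of the IgG ratios of SLC2A2 (-0.23 and -0.21) and LDHB (-0.11 and -0.13) and, at 0.0073, of the MLXIPL difference of ratios on the all-region median. Pooling turned that difference to 0.78 for MLXIPL and 0.45 for GPT. The cause of these changes was not tested. No paired analysis was possible because each group has 1 library. Precision is limited by the 11 to 36 IgG reads at low glucose, and gene-level sums repeat the region values since each gene has 1 region.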
